A study of Mus musculus with 30 samples.

Results

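Oxidative phosphorylation subunits are the nuclear-encoded proteins of the respiratory chain and ATP synthase, and their transcripts were followed here in whole hippocampus of 30 mice aged 15 months. Members were taken by gene symbol: the numbered Nduf subunits, the Sdh subunits, the Uqcr family with Cyc1, the common Cox subunits and the Atp5 family, without pseudogene symbols. The rule found 68 of the 20227 symbols in the table, held in 213 of its 46109 transcript rows. They comprise 30 subunits of complex I, 3 of complex II, 9 of complex III, 12 of complex IV, 12 of complex V and 2 genes, Atp5s and Atp5sl, that carry an Atp5 name without being subunits of the enzyme. Ndufa4 was counted with complex IV, to which its protein is now assigned.

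The mice were fed ChowCR, a diet that the series title links to caloric restriction, or 5% P, 10% P or 15% P, which the title describes as low in protein and high in carbohydrate, or Chow as the control. Each diet had 6 mice, 3 male and 3 female, each sequenced as its own library. Strain, diet composition beyond these names, and the time on diet are not given in the labels, and neither is any batch. The sample titles of ChowCR carry higher numbers than all other titles; what those numbers mean is not stated, so anything that followed them cannot be told apart from ChowCR.

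In the mitochondrial inner membrane, complex I takes electrons from NADH and complex II takes them from succinate. Both pass them by ubiquinone to complex III and by cytochrome c to complex IV, while complexes I, III and IV pump protons and complex V uses the return flow to make ATP. Most subunits are encoded in the nucleus and a small core by mitochondrial DNA; neurons depend heavily on this ATP for ion pumping and synaptic transmission. The mitochondrially encoded subunits were not found under the symbols searched and were not analysed here.

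No member passed the test in any comparison of diets or sexes. Levels were close between diets for the catalytic subunits of complexes II and V, and the most even member was Sdha, whose 30 values lay between 102 and 121 FPKM (fragments per kilobase of transcript, scaled to library size). Among the smallest p-values were those of Ndufs4, Ndufs6, Ndufb6 and Atp5j, and they are given with their values below. Several members could not be measured well from this table, either because their coding transcript was seldom listed or because single libraries lay far below the others.

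Promoter sequence was one feature that the rule had not used, and 8 stretches that hold known motifs of mitochondrial gene promoters are shown. Nuclear respiratory factor 1 (NRF-1), the ETS-family factor GABP and YY1 are textbook regulators of respiratory chain genes. The 250 bases before the start site were searched on both strands in RefSeq promoters (GRCm38.p6), of which 56 members had an entry. The NRF-1 core GCATGCGC was present in 6 of 56 members (10.7%) and in 2.56% of all 27025 genes with an entry. It was present in 5.65% of the 3044 tested symbols with an entry, which is fewer than 80% of the 4848 symbols tested. Members were matched to entries by symbol or synonym and tested symbols by symbol alone, so these shares are not built alike. The ETS core CCGGAAG was present in 11 members (19.6%), in 7.83% of all genes and in 16% of those tested symbols. The YY1 core AAGATGGC was present in 2 members (3.57%), in 1.83% of all genes and in 2.89% of those tested symbols. NRF-1 matches can overlap their own reverse complement in a palindrome, and a gene was counted once however many matches or promoter entries it had. The 8 stretches are those of the 6 members with an NRF-1 core, and of Atp5j and Ndufb6. Atp5j and Ndufb6 were picked by name, and both are among the members of small p described below. The remaining members with an ETS or YY1 core are not shown. For Atp5j the stretch below comes from the entry at chr16:84834927-84835226, and its entry at chr16:84835576-84835875 held none of these motifs. The motifs do not overlap one another in the stretches below. Each is given 5′ to 3′ on the gene's strand with the matches in capitals (CTTCCGG is the ETS core read on the other strand), and a match is a description of letters only.
Sdhb, NRF-1 core, chr4:140961202-140961239, plus strand: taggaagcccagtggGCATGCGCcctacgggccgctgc
Ndufa6, NRF-1 core, chr15:82354352-82354389, minus strand: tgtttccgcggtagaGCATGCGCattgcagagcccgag
Ndufa8, NRF-1 core, chr2:36049339-36049361, minus strand: cgcgtcgctggagacGCATGCGC
Ndufa11, palindromic NRF-1 core, chr17:56717687-56717726, plus strand: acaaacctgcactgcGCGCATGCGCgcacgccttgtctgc
Atp5k, palindromic NRF-1 core, chr5:108434425-108434464, minus strand: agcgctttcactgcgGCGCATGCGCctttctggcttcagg
Cox6a1, palindromic NRF-1 core and ETS core, chr5:115348959-115349135, minus strand: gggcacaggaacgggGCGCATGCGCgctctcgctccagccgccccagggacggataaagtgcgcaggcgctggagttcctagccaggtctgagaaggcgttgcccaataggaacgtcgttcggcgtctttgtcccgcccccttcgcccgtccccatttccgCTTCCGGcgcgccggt
Atp5j, YY1 core and ETS core, chr16:84835016-84835079, minus strand: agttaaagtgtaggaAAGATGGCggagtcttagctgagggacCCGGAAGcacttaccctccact
Ndufb6, ETS core, chr4:40279632-40279668, minus strand: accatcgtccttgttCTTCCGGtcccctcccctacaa

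Levels were compared between genes as FPKM, which is per transcript length, after summing over the transcripts of a symbol. Depth is unknown because FPKM keeps no read totals. The libraries listed between 19681 and 21853 transcript rows, and the members made up 2.72% to 3.53% of a library's summed FPKM. Among the 45 members with a coding transcript in all 30 libraries, mean levels ran over libraries from 23.2 FPKM for Atp5j2, the f subunit of complex V, to 442 FPKM for Atp5b. The median member of complex I stood at 55.7 FPKM, of complex II at 60.7, of complex III at 62.2, of complex IV at 163 and of complex V at 113.

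**Figure D1:**
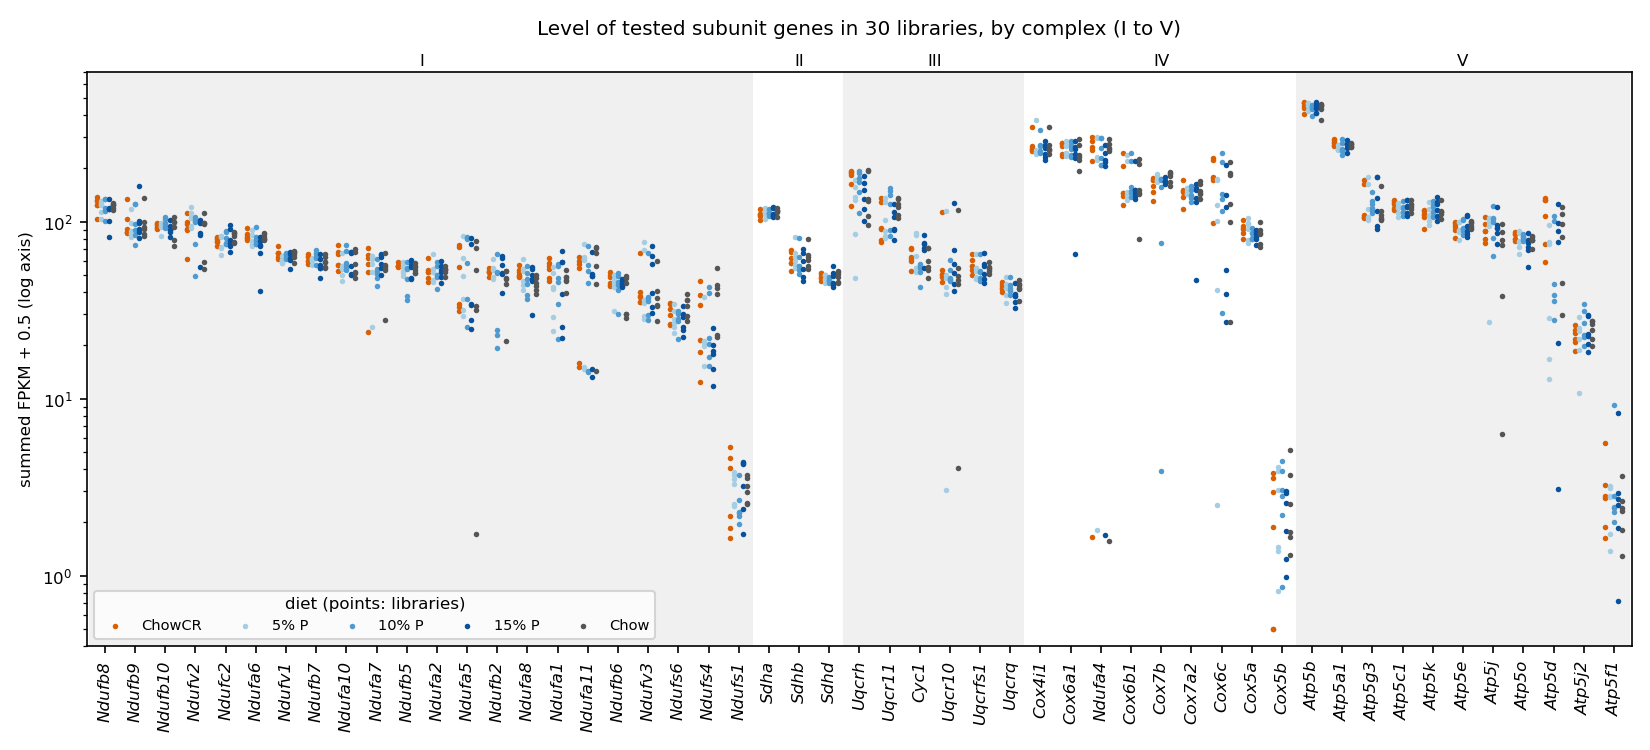
Summed FPKM plus 0.5 on a log axis for tested members, ordered by complex and by mean level; each point is 1 library, coloured by diet. Most genes form tight columns in which the diets overlap, Atp5b is highest at a mean of 442 FPKM, and single points far below their column mark low libraries such as Chow replicate 2 for Atp5j at 5.78 FPKM.

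Within complex V the catalytic head stood highest. Atp5b (the beta subunit) had 450 ± 24.7 FPKM in ChowCR, 448 ± 21.9 in 5% P, 436 ± 21.1 in 10% P, 437 ± 24.9 in 15% P and 437 ± 32.6 in Chow (mean ± SD, n = 6 each). Atp5a1 (the alpha subunit) averaged 268 ± 14.1 FPKM over the 30 libraries and was lower than Atp5b in 30 of 30, by a median ratio of Atp5b to Atp5a1 of 1.67. Both exceeded the central-stalk subunits Atp5c1, Atp5d and Atp5e and the peripheral-stalk subunit Atp5o in every library. The median ratio of Atp5b to Atp5c1, the gamma subunit, was 3.69. Atp5g3, which encodes the proton-carrying c subunit, averaged 125 ± 27.7 FPKM and lay above Atp5c1 in 13 of 30 libraries, so the order of this pair is not set. Its paralogs Atp5g1 and Atp5g2 were not among the symbols that the rule found.

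The 3 members of complex II kept 1 order in all libraries, while Sdhc was not among the symbols found. Sdha, the flavoprotein that oxidises succinate, averaged 112 ± 4.72 FPKM over 30 libraries, Sdhb, the iron-sulfur subunit, 60.7 ± 8.87 and Sdhd, a membrane anchor, 47.7 ± 2.91. Sdha exceeded Sdhb and Sdhb exceeded Sdhd in 30 of 30 libraries, although the smallest ratio of Sdhb to Sdhd was 1.03. In complex IV, Cox4i1, a nuclear-encoded subunit that takes part in regulation by ATP, averaged 266 ± 35.1 FPKM and Cox6a1 248 ± 41.8, with Cox6a1 the higher in 13 of 30 libraries. Among members with a coding transcript in all 30 libraries, Cox5a was the lowest of complex IV at 86.2 ± 8.59 FPKM. By the same limit, in complex III Uqcrh, the hinge protein, was highest at 148 ± 38.2 FPKM and Uqcrq lowest at 41.0 ± 3.95. Uqcrfs1, the Rieske iron-sulfur protein, averaged 53.9 ± 5.94 FPKM and Cyc1, cytochrome c1, 62.2 ± 11.2, with Cyc1 the higher in 23 of 30 libraries. By the same limit, in complex I Ndufb8, an accessory subunit of the membrane arm, was highest at 120 ± 12.6 FPKM and Ndufs4 lowest at 26.03 ± 11.8.

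Of the 68 members, 52 were listed in all 30 libraries with a mean of at least 1 FPKM and entered the test: 23 of complex I, 3 of complex II, 6 of complex III, 9 of complex IV and 11 of complex V. The test was limma with an empirical Bayes trend on log2(summed FPKM + 0.5), with sex as a covariate, two-sided, and p-values were adjusted by Benjamini-Hochberg over all 4848 symbols tested. Fold changes on this scale understate the change of low genes. In bulk tissue, fewer cells of a type and less RNA per cell cannot be told apart. A log2 difference below is the first-named diet minus the second.

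Markers of excitatory neurons were better covered than those of hippocampal subfields. Of the excitatory neuron markers, 5 of 6 were listed in all libraries, with Camk2a at 430 to 700 FPKM and Slc17a7 at 117 to 321 FPKM. Of the dentate granule cell markers 1 of 4, Calb1, was listed in all libraries, and Dsp in none. Of the CA pyramidal cell markers 2 of 5, Wfs1 and Crym, were listed in all libraries. Choroid plexus RNA varied widely: 2 of its 7 markers, Ttr and Enpp2, were listed in all libraries, Kl in 22 and the other 4 in 9 to 12. In the marker sums below, a marker not listed in a library counted as 0. The summed choroid plexus level ran from 55.9 to 8055 FPKM (median 1804) in ChowCR, 37.2 to 2772 (median 57.2) in 5% P, 38.5 to 5028 (median 133) in 10% P, 40.9 to 6441 (median 102) in 15% P and 53.5 to 7067 (median 1733) in Chow. Medians were thus higher in both chow groups, with ranges that overlapped. Adding log2 Ttr as a covariate, an alternative chosen after the data were seen, left 0 members past the threshold in each comparison. Summed astrocyte markers (4 of 6 listed in all libraries) were 494 to 610 FPKM in 10% P and 261 to 438 in Chow, without overlap, and their part in the 10% P comparison was not tested. The other lists overlapped between each diet and Chow. Their diet medians were 1229 to 1499 FPKM for excitatory neurons, 22.8 to 32.1 for dentate granule cells, 131 to 157 for CA pyramidal cells, 202 to 300 for interneurons, 1247 to 1481 for oligodendrocytes, 0 to 6.94 for oligodendrocyte precursors, 40.3 to 75.2 for microglia, 13.9 to 21.9 for endothelial cells and 118 to 156 for red blood cells. These sums also depend on which markers were listed: Nrgn was listed in 8 libraries, C1qa in 10, Pdgfra in 18 and Cspg4 in 2.

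ChowCR and Chow were compared to ask whether restriction on the chow diet shifted the subunits. Of 52 members 0 passed the threshold of 0.05 in limma, where 0.0619% of all symbols tested did; at an unadjusted p under 0.05 there were 2, where 6.93% of all symbols were. In ChowCR 36 members had a higher mean log2 value and 16 a lower one, and 53.4% of all symbols tested were higher. The median difference was 0.042 on the log2 scale, against 0.021 for all symbols tested. The members' median was 0.0054 in males alone and 0.020 with libraries rescaled to equal summed FPKM. By complex the medians were 0.036 for I, -0.030 for II, 0.076 for III, 0.018 for IV and 0.053 for V. Intervals of 95% reached from 0.097 to 3.04 either side of the estimate, with a median of 0.28, and those of 30 members stayed within 0.5 of no difference.

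Ndufb6, an accessory subunit of the membrane arm of complex I, had the smallest p in this comparison. Its gene lies on chromosome 4 (40270591 to 40279421, minus strand, GRCm38). Its level ran from 42.95 to 51.3 FPKM (median 46.0) in ChowCR and from 27.9 to 48.7 (median 37.04) in Chow. The ChowCR libraries sat in a narrow band, while 3 Chow libraries lay at 27.9 to 29.6 FPKM and the other 3 within the ChowCR range. Such low values were not confined to Chow: 5% P replicate 5 stood at 30.7 FPKM and 10% P replicate 4 at 29.7. The other libraries of the P diets stood at 40.4 FPKM or above. The log2 difference was 0.33 ± 0.14 (SE; 95% interval 0.036 to 0.62), with an adjusted p of 0.66 in limma. The next smallest p belonged to Atp5j, described below, and then to Uqcr11, a small subunit of complex III. Uqcr11 ran from 76.4 to 135 FPKM (median 91.2) in ChowCR and from 105 to 136 (median 123) in Chow, and 2 ChowCR libraries reached the upper end of Chow. Its log2 difference was -0.31 ± 0.17 (SE), with an adjusted p of 0.74 in limma, and it was -0.44 in males alone and -0.17 in females alone.

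The 5% P, 10% P and 15% P diets were each set against Chow to ask whether the subunits differed. The protein content of Chow is not given in the labels. In these comparisons protein content cannot be told apart from other differences between the diets. In 5% P, 0 members passed the threshold and 0% of all symbols did; 3 members had an unadjusted p under 0.05, where 5.28% of all symbols did. In 10% P, 0 members and 0% of all symbols passed, with 3 members against 6.19% of symbols at an unadjusted p under 0.05. In 15% P, 0 members and 0% of all symbols passed, with 5 members against 5.32% of symbols unadjusted, and these 5 were Ndufs4, Ndufa6, Ndufs6, Atp5j and Cyc1. The share of 5 in 52 members was 9.62%. Median log2 differences of the members from Chow were -0.022 in 5% P (20 higher, 32 lower), -0.0043 in 10% P (25 higher, 27 lower) and -0.028 in 15% P (20 higher, 32 lower). These members' medians changed sign with libraries rescaled to equal summed FPKM in 5% P (0.011) and 10% P (0.0097), and without 15% P replicate 6 in 15% P (0.0023). The medians over all symbols tested were 0.00078, 0.011 and -0.012. In the same order, 50.4%, 51.8% and 47.5% of all symbols tested were higher than in Chow. By complex, the members of complex I had medians of -0.010 in 5% P, -0.037 in 10% P and -0.0069 in 15% P. Those of complex II had -0.021, -0.057 and -0.031 in rising order of protein, and those of complex III -0.091, -0.0046 and -0.0059. In complex IV 6 of 9 members were higher in 10% P (median 0.083) and 1 of 9 in 15% P (median -0.15), and no member of it passed the test. Single low libraries enter these counts. In 15% P, replicate 6 held Ndufa4 at 1.201 and Cox6a1 at 64.8 FPKM, and replicate 2 held Cox7a2 at 46.5. Chow replicate 2 held Ndufa4 at 1.07 FPKM. Medians by complex were not recomputed without such libraries. Complex V had medians of -0.042, 0.031 and -0.0056. All 4 comparisons with Chow share its libraries.

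**Figure D2:**
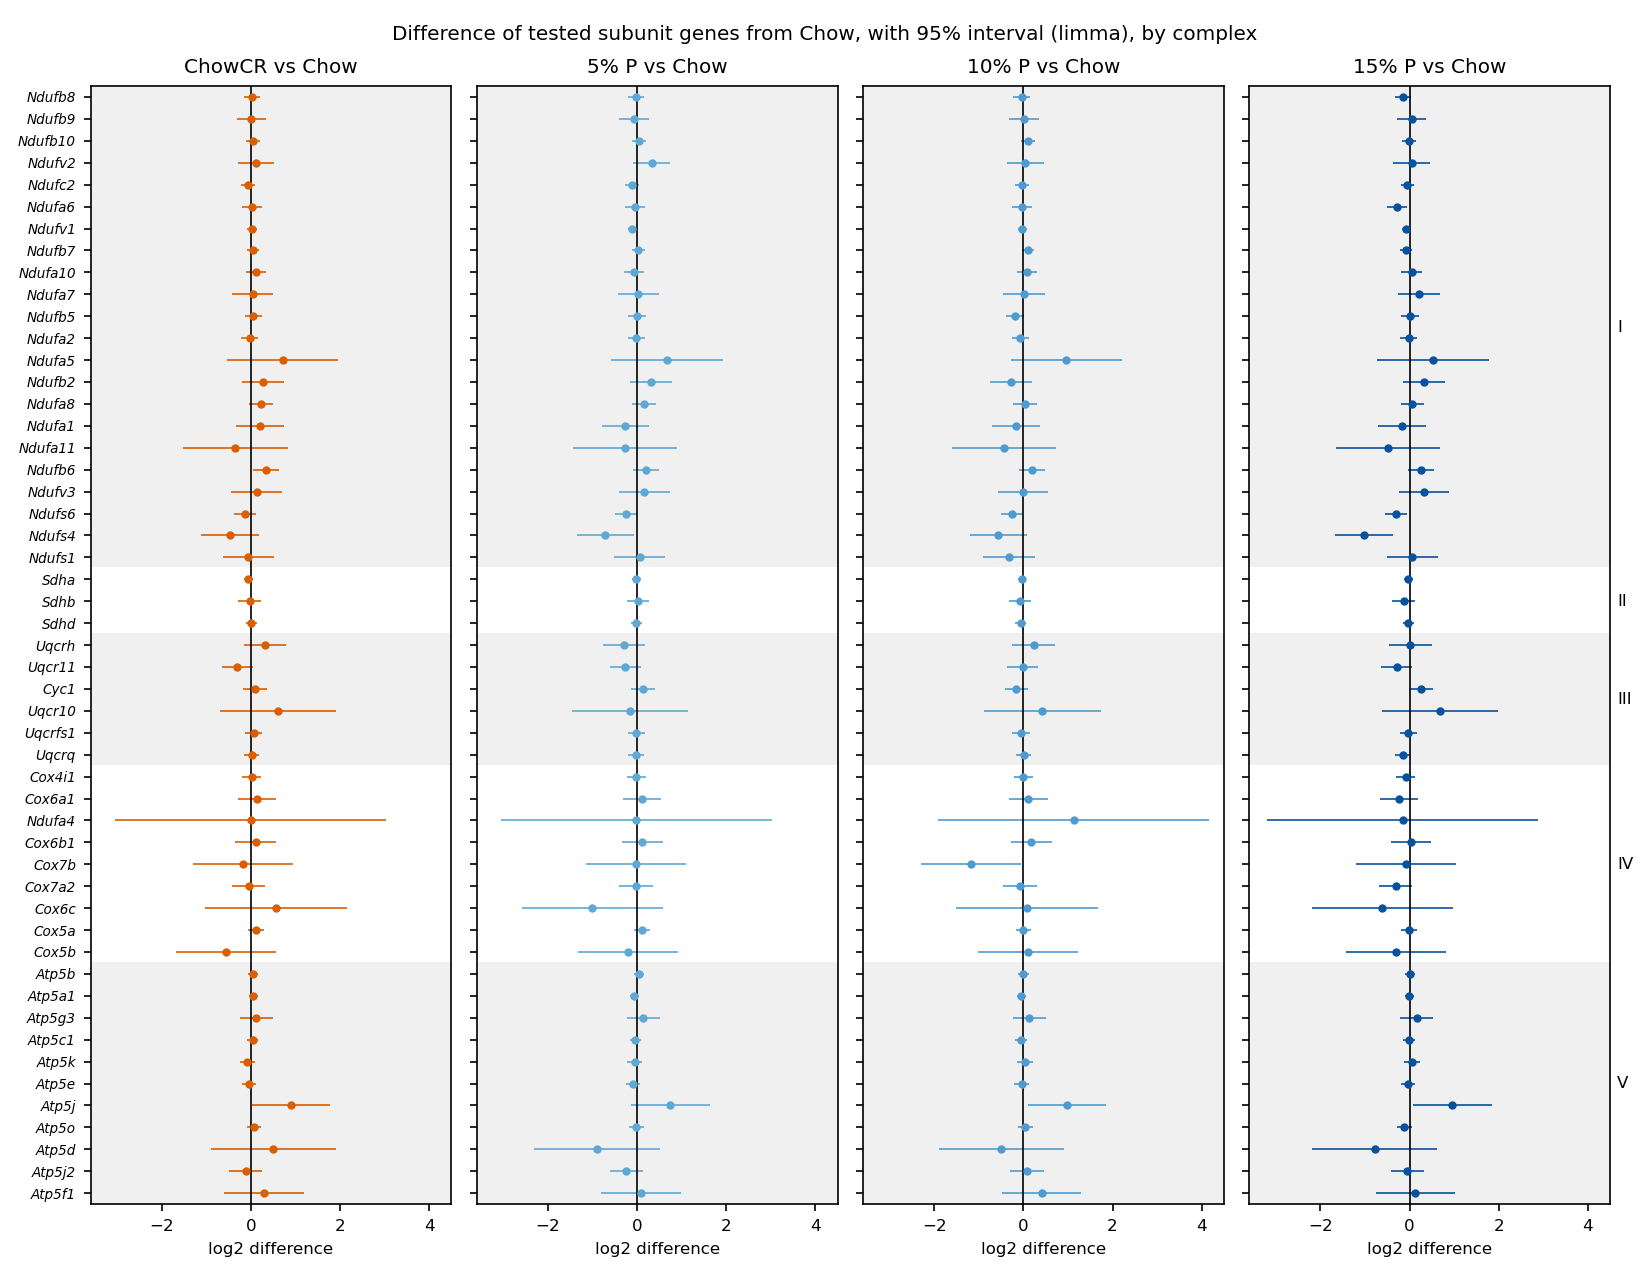
Log2 difference from Chow of tested members in ChowCR, 5% P, 10% P and 15% P, with 95% intervals from limma (6 libraries a diet); genes run down the page by complex and level. Intervals are narrow for Sdha, Atp5a1 and Atp5b and wide for Ndufa4, where they reach 3.04 either side, and Ndufs4 in 15% P lies at -1.02.

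Ndufs4, an accessory subunit of the NADH-oxidising module of complex I whose loss causes Leigh syndrome, gave the smallest p of any member. It lies on chromosome 13 (114287795 to 114388258, minus strand, GRCm38), is covered by 1 transcript row, and is overlapped by no other annotated gene. Its level ran from 11.9 to 45.5 FPKM (median 27.1) in ChowCR, 14.9 to 36.9 (median 20.3) in 5% P, 14.9 to 42.4 (median 20.6) in 10% P, 11.3 to 24.7 (median 17.7) in 15% P and 21.9 to 53.9 (median 40.3) in Chow. The 15% P libraries reached only into the lower end of the Chow range, where 2 Chow libraries stood at 21.9 and 22.4 FPKM, and the other 4 Chow libraries were at 38.7 FPKM or above. Over all diets no library lay between 24.7 and 33.3 FPKM, a gap seen after the values were known. Besides those 4 Chow libraries, ChowCR replicates 2, 3 and 4, 5% P replicate 5 and 10% P replicates 3 and 4 stood above it. The differences below thus follow how many libraries of a diet stood above this gap. In 15% P the log2 difference from Chow was -1.02 ± 0.31 (SE; 95% interval -1.66 to -0.38), a ratio of 0.493, with an unadjusted p of 0.0031 and an adjusted p of 0.57 in limma. In 5% P the difference was -0.71 ± 0.31 and the adjusted p 0.93. In 10% P the difference was -0.56 ± 0.31 and the adjusted p 0.79. In ChowCR it was -0.47 ± 0.31, with an adjusted p of 0.80. The mean of the 3 P diets differed from Chow by -0.76 ± 0.26 (adjusted p = 0.46 in limma), and this difference lay between -0.91 and -0.65 over all alternatives run.

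Ndufs6, a zinc-binding accessory subunit added late in the assembly of the same module, was also lower in mean in each P diet. Its gene lies on chromosome 13 (73319838 to 73328542, minus strand, GRCm38). Its level ran from 25.5 to 34.1 FPKM (median 30.4) in ChowCR, 23.0 to 33.6 (median 26.9) in 5% P, 21.3 to 30.9 (median 28.6) in 10% P, 21.7 to 32.9 (median 26.6) in 15% P and 27.1 to 38.5 (median 34.2) in Chow. Every diet overlapped Chow. The log2 difference from Chow was -0.25 ± 0.12 in 5% P, -0.25 ± 0.12 in 10% P and -0.30 ± 0.12 in 15% P (SE). The smallest of the 3 adjusted p-values in limma was 0.79, in 10% P. The 3 P diets averaged together differed from Chow by -0.27 ± 0.098, with an adjusted p of 0.62 in limma. In males alone the 5% P difference was 0.0097 and in females alone -0.52, so its sign turned, and the 15% P difference was -0.085 in males and -0.51 in females. The test of a sex effect differing between diets gave it an adjusted p of 0.96 in limma. Ndufs6 is overlapped on the opposite strand by Mrpl36, and the sources used here do not say how the quantification treated strand.

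Ndufv1, the core subunit that binds NADH and the flavin cofactor, was among the most even members (SD of 0.079 on the log2 scale within diets). Its level ran from 57.8 to 63.1 FPKM (median 59.7) in 5% P and from 58.1 to 68.1 (median 65.7) in Chow. The 6 libraries of 5% P covered the lower part of the Chow range. The log2 difference was -0.11 ± 0.052 (SE), with an adjusted p of 0.93 in limma. Ndufa6, an accessory subunit close to the ubiquinone site, ran from 40.2 to 81.6 FPKM (median 72.9) in 15% P and from 78.7 to 86.2 (median 80.4) in Chow. Its log2 difference of -0.28 ± 0.11 (adjusted p = 0.80 in limma) shrank to -0.14 without 15% P replicate 6, the library at 40.2 FPKM.

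In complex II, Sdha ran from 102 to 117 FPKM (median 110) in ChowCR, 104 to 119 (median 113) in 5% P, 108 to 117 (median 112) in 10% P, 106 to 121 (median 109) in 15% P and 106 to 119 (median 115) in Chow. All 5 ranges overlapped almost entirely. The largest Sdha difference in size was that of ChowCR, -0.059 ± 0.047 (SE; 95% interval -0.16 to 0.038), with an adjusted p of 0.86 in limma. Its interval in each P diet stayed between -0.13 and 0.076. Sdhb, the carrier of an NRF-1 core shown above, differed from Chow by -0.13 ± 0.12 in 15% P (SE; 95% interval -0.39 to 0.12, adjusted p = 0.94 in limma) and by less in the other diets.

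Cyc1, the cytochrome c1 subunit through which complex III hands electrons to cytochrome c, had the smallest p of any member for a difference among all 5 diets. It ran from 52.2 to 70.4 FPKM (median 62.2) in ChowCR, 51.1 to 85.2 (median 59.1) in 5% P, 42.2 to 56.8 (median 55) in 10% P, 54.5 to 83.8 (median 72.2) in 15% P and 47.8 to 70.5 (median 57.1) in Chow. The 10% P libraries were low and all but 1 of the 15% P libraries lay at 68.8 FPKM or above. The F test over the 5 diets gave an unadjusted p of 0.038 and an adjusted p of 0.82 in limma; 0% of all symbols passed this test, 6.04% had an unadjusted p under 0.05, and 2 members did, Cyc1 and Ndufs4. Ndufb2, an accessory subunit of complex I, followed with an adjusted p of 0.83 in limma. Uqcrfs1 averaged 56.4 ± 5.55 FPKM in ChowCR, 53.6 ± 6.58 in 5% P, 52.2 ± 6.94 in 10% P, 53.3 ± 7.95 in 15% P and 53.9 ± 2.79 in Chow (SD, n = 6 each).

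Cox7b, a small X-linked subunit of complex IV, lay in 10% P at 174, 156, 3.40, 174, 172 and 75.4 FPKM in replicates 1 to 6, and between 158 and 190 FPKM (median 183) in Chow. Replicate 3 and, less so, replicate 6 stood far below the other 4. The log2 difference of -1.17 ± 0.55 (SE; adjusted p = 0.79 in limma) became -0.31 without 10% P replicate 3. Cox4i1 averaged 272 ± 35.1 FPKM in ChowCR, 268 ± 51.5 in 5% P, 268 ± 31.8 in 10% P, 252 ± 24.3 in 15% P and 269 ± 36.7 in Chow (SD, n = 6 each). In 4 of the 5 diets, all but 15% P, 1 library lay far above the other 5, at 329 to 372 FPKM. Its differences from Chow lay between -0.091 and 0.018 on the log2 scale.

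Atp5j, coupling factor 6 in the peripheral stalk of ATP synthase, had the largest positive differences of complex V. It ran from 75.2 to 105 FPKM (median 87.7) in ChowCR, 26.7 to 105 (median 97.2) in 5% P, 63.7 to 122 (median 101) in 10% P, 74.3 to 121 (median 91.7) in 15% P and 5.78 to 96.0 (median 76.1) in Chow. In Chow the values of replicates 1 to 6 were 73.5, 5.78, 78.7, 37.5, 86.5 and 96.0 FPKM, and its coding transcript was listed in 29 of the 30 libraries. Where listed, the leading coding transcript stood at 10.4 FPKM or above. The 5.78 FPKM of Chow replicate 2 is therefore a sum of transcripts not annotated as protein-coding. The log2 difference from Chow was 0.89 ± 0.43 in ChowCR, 0.75 ± 0.43 in 5% P, 0.98 ± 0.43 in 10% P and 0.96 ± 0.43 in 15% P (SE). Adjusted p-values in limma were between 0.72 and 0.93. Without Chow replicate 2 the difference was 0.33 for ChowCR, 0.41 for 10% P and 0.33 for the P diets averaged (0.90 with it), so that library decides its size. In males alone the ChowCR difference was 0.097 and in females alone 1.69, and the test of a sex effect differing between diets gave an adjusted p of 0.96 in limma. The low libraries, Chow replicates 2 and 4 and 5% P replicate 4, were all female. Atp5j lies on chromosome 16 (84827866 to 84835625, minus strand, GRCm38) and is overlapped on the opposite strand by Gabpa, the gene of the GABP alpha subunit.

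**Figure D3:**
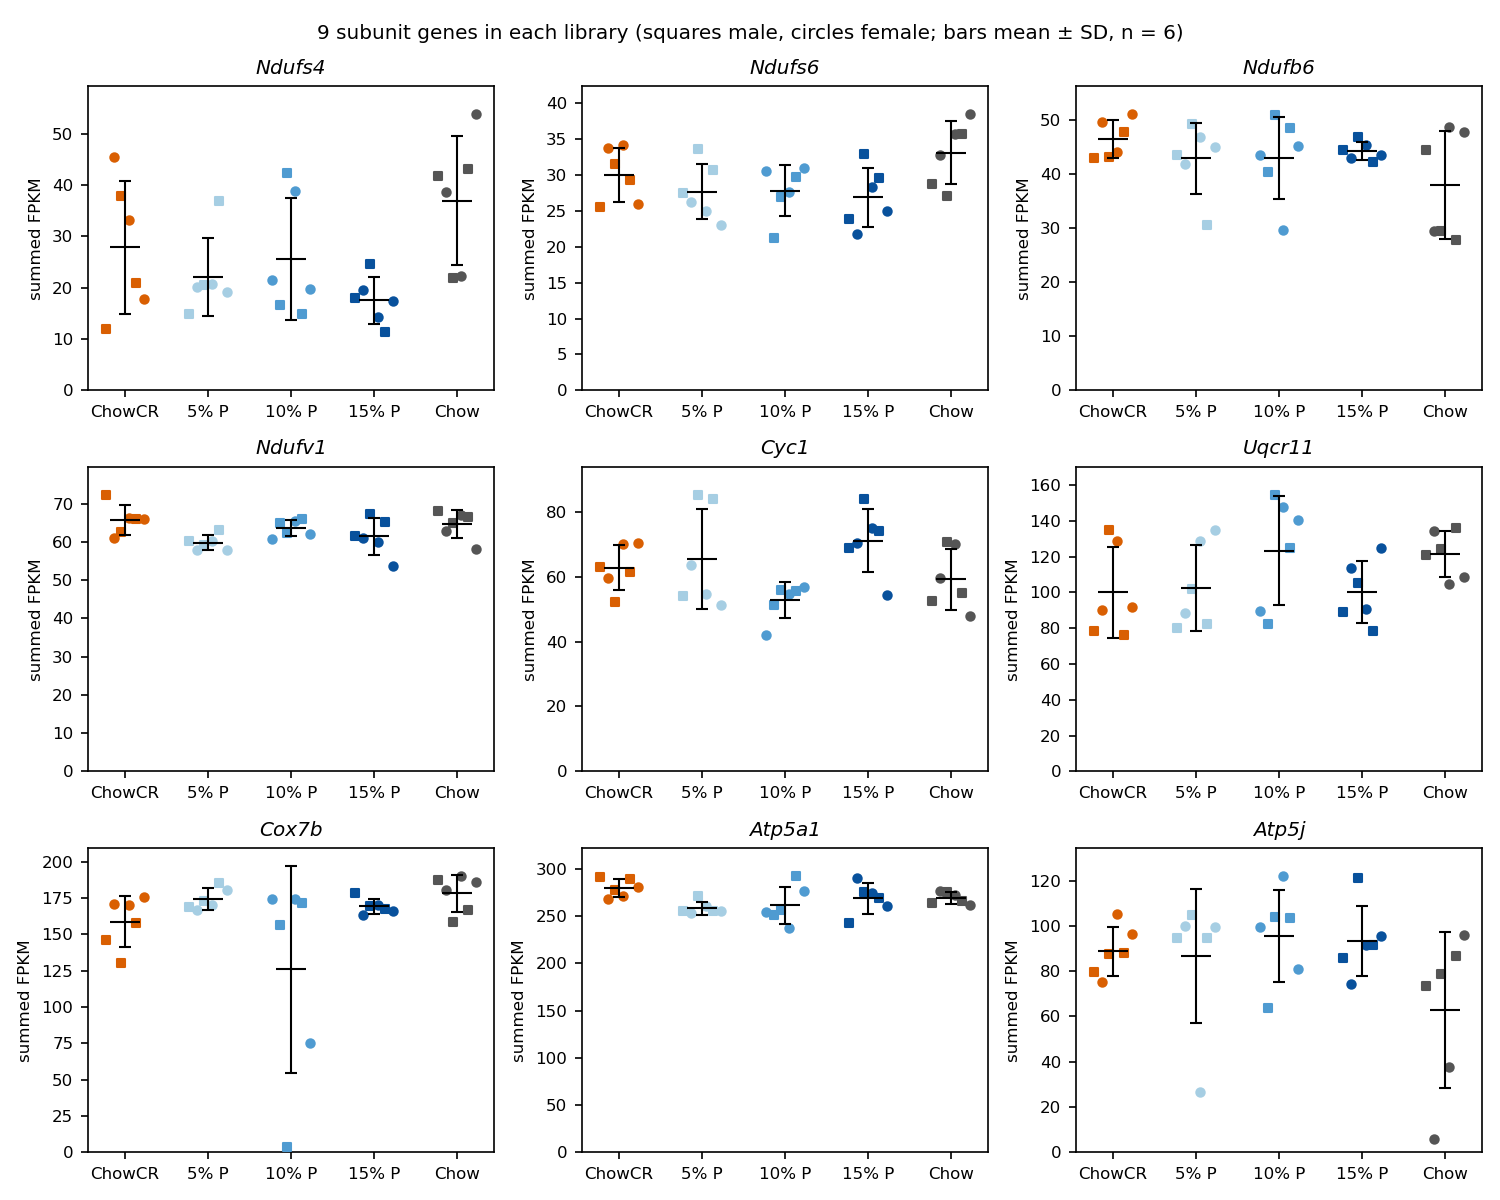
Summed FPKM in every library for 9 members, by diet (squares male, circles female; bars mean ± SD, n = 6). Ndufs4 reaches at most 24.7 FPKM in 15% P and up to 53.9 in Chow, Atp5a1 and Ndufv1 stay within narrow bands, and single low libraries stand out for Cox7b (3.40 FPKM in 10% P) and Atp5j (5.78 FPKM in Chow).

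The mean of the 3 P diets was also compared with Chow and with ChowCR, to set the low-protein diets against both chow groups. Against Chow 0 members and 0% of all symbols passed, with 3 members and 5.94% of symbols at an unadjusted p under 0.05. The members' median log2 difference was -0.034 (20 higher, 32 lower), or -0.014 with libraries rescaled to equal summed FPKM. That of all symbols was -0.0056, and 48.9% of all symbols were higher. Against ChowCR 0 members and 0% of all symbols passed, with 3 members and 6.68% of symbols unadjusted. Here 14 members were higher and 38 lower in the P diets, with a median of -0.053 for the members (-0.011 after the same rescaling, -0.12 in females alone) and -0.033 for all symbols; 44.2% of all symbols were higher.

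Atp5a1 gave the smallest p against ChowCR. It ran from 253 to 272 FPKM (median 255) in 5% P, 238 to 293 (median 255) in 10% P, 242 to 290 (median 272) in 15% P and 268 to 291 (median 279) in ChowCR. Of the 5% P libraries, 5 of 6 lay below the whole ChowCR range, and so did 4 of 6 in 10% P and 2 of 6 in 15% P. The log2 difference of the mean of the P diets was -0.090 ± 0.040 (SE; 95% interval -0.17 to -0.0084), with an adjusted p of 0.66 in limma, and it became -0.048 when libraries were rescaled to equal summed FPKM. Ndufv1 differed by -0.093 ± 0.042 with an adjusted p of 0.68 in limma, and by -0.051 after the same rescaling. Atp5d, the delta subunit of the central stalk, ran from 12.4 to 94.8 FPKM (median 51.2) in 5% P, 27.2 to 107 (median 40.9) in 10% P, 2.60 to 125 (median 82.1) in 15% P and 58.9 to 136 (median 119) in ChowCR. Its log2 difference was -1.23 ± 0.56 (SE), with an adjusted p of 0.68 in limma, and its values spread widely in every diet.

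Across 5% P, 10% P and 15% P in order, a straight line in protein content passed the test for 0 members and 0% of all symbols, with 0 members and 4.27% of symbols at an unadjusted p under 0.05. The slope was positive for 24 members and negative for 28, with a median of -0.0041 log2 units per 5 percent protein, or 0.0026 after median-ratio rescaling. A positive slope was found for 48.0% of all symbols tested. Ndufa6 had a slope of -0.12 ± 0.069 (SE), or -0.039 without 15% P replicate 6, and Cox5a one of -0.064 ± 0.041, or -0.041 without 5% P replicate 3. Both had an adjusted p of 0.96 in limma.

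Between 15 males and 15 females 0 members passed, where 0.0206% of all symbols did, and 1 member had an unadjusted p under 0.05, where 5.26% of symbols did. That member was Ndufv1, with 64.7 ± 3.35 FPKM in males and 61.3 ± 3.73 in females (SD, n = 15 each). The log2 difference of males minus females was 0.077 ± 0.033 (SE), with an adjusted p of 0.89 in limma. Ndufc2, a small subunit of complex I, was at 76.2 ± 7.19 FPKM in males and 81.4 ± 5.86 in females, and Ndufb8 at 124 ± 9.09 in males and 115 ± 14.2 in females. Both had an adjusted p of 0.89 in limma. Of 52 members 25 were higher and 27 lower in males, where 48.3% of all symbols were higher. An effect of sex that differed between diets, a comparison added after the data were seen, was found for 0 members and 0.0825% of all symbols, with 1 member (Ndufa8, an accessory subunit of complex I) and 4.83% of symbols at an unadjusted p under 0.05.

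Members varied less between libraries of a diet than most symbols, and they were also more abundant. Their median SD within diets was 0.23 on the log2 scale, at a median level of 75.4 FPKM, and for all symbols tested it was 0.59 at 10.9 FPKM. The narrowest were Sdha (0.062), Atp5a1 (0.070) and Ndufv1 (0.079), and the widest Ndufa4 (2.65), Cox6c (1.38) and Atp5d (1.21). Of 1560 values of tested members, 23 lay below the member's own median divided by 4, in 10 members and 16 libraries: 3 values in ChowCR, 6 in 5% P, 3 in 10% P, 6 in 15% P and 5 in Chow. By this measure 19.2% of tested members and 42.5% of all symbols tested had at least 1 such library.

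Ndufa4 had 4 such values. Its level was 1.159 FPKM in ChowCR replicate 4, 1.31 in 5% P replicate 3, 1.201 in 15% P replicate 6 and 1.07 in Chow replicate 2, and between 207 and 302 FPKM in the other 26 libraries. No library fell between these levels. Cox6c, a small complex IV subunit, was at 2.01 FPKM in 5% P replicate 3 and at 26.5 to 30.2 FPKM in 3 further libraries, against a median of 137. Ndufa5, an accessory subunit of complex I, was at 1.22 FPKM in Chow replicate 1 with a median of 42.4, and Uqcr10, a small complex III subunit, at 2.55 in 5% P replicate 4 and 3.57 in Chow replicate 2 with a median of 48.6. A coding transcript was listed in 29 libraries for Ndufa5 and in 28 for Uqcr10. Where listed, the leading one stood at 20.2 FPKM or above for Ndufa5 and 33.6 or above for Uqcr10. Their low values are therefore sums of transcripts not annotated as protein-coding. Chow replicate 2 held 3 such values, the most of any library. Wide spread also took other forms: Ndufa11, a membrane-arm accessory subunit singled out after its values were seen, lay at 12.8 to 15.4 FPKM in 9 libraries and at 43.9 to 74.1 in the other 21. The 9 low libraries of Ndufa11 were 2 each of ChowCR, 5% P, 10% P and 15% P and 1 of Chow.

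**Figure D4:**
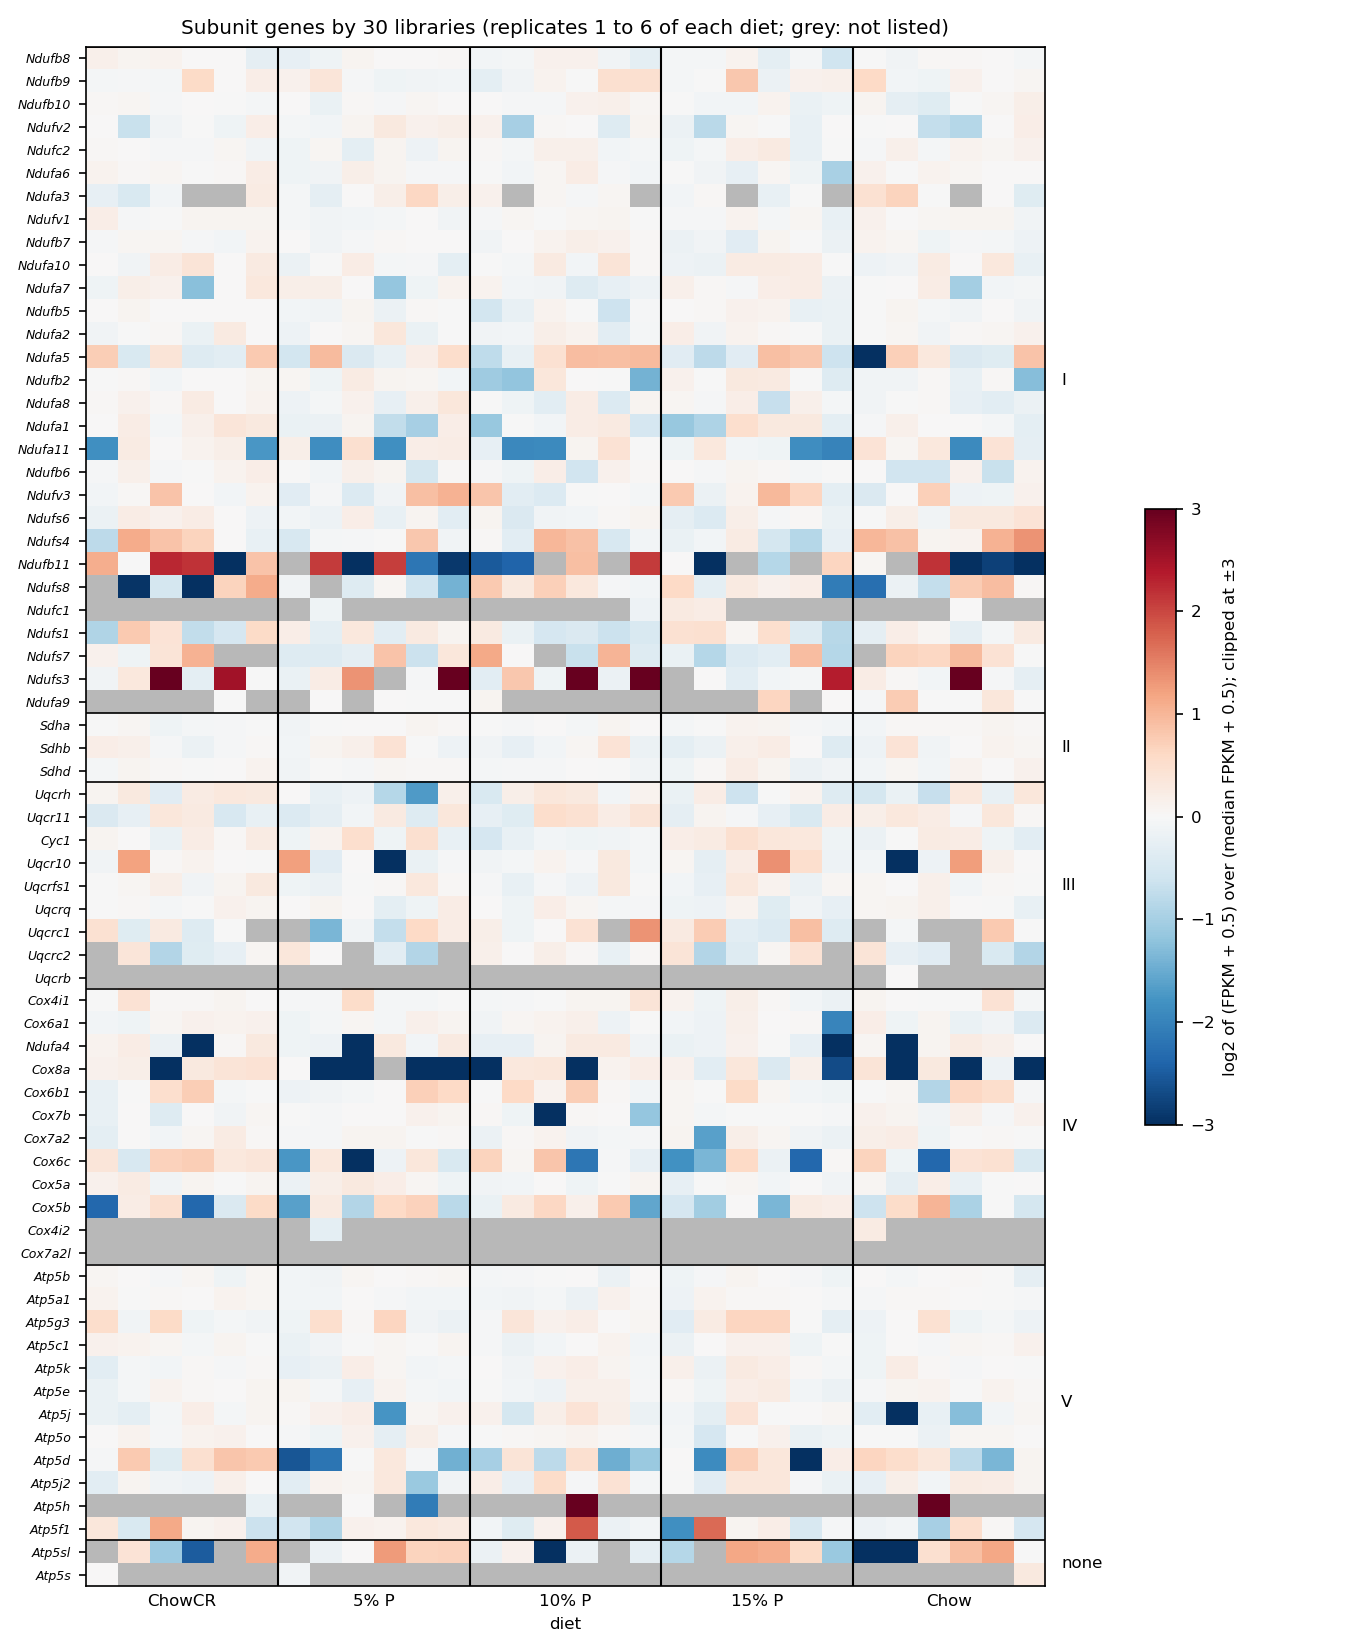
Log2 ratio of each value to the gene's own median, with 0.5 FPKM added, for members (rows, by complex) in 30 libraries (columns, by diet); blue is below the median, red above, grey not listed, clipped at 3. Complex II and the leading rows of complex V are nearly blank, isolated dark cells such as Ndufa4 in 4 libraries mark single low values, and grey rows such as Cox7a2l are genes with few or no listed values.

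For 16 members the table gave too few values to test. Of these, Ndufa9, Ndufs3 and Ndufs7 of complex I, Uqcrb and Uqcrc2 of complex III and Atp5h of complex V were listed only through transcripts not annotated as protein-coding. Uqcrc1, a core subunit of complex III, was listed in 24 libraries at up to 2.82 FPKM, with a coding transcript in 2. Cox8a had its coding transcript in 29 libraries, at 0 to 381 FPKM, and 11 of them lay below its median divided by 4. Ndufb11, an X-linked accessory subunit, had values in 24 libraries from 0.200 to 71.4 FPKM, Ndufa3 in 23, Ndufc1 in 5, and Cox4i2, the isoform known from lung and low oxygen, in 2 at up to 0.812 FPKM. Ndufs8, a core iron-sulfur subunit, had values in 28, Atp5sl in 25 and Atp5s in 3. Cox7a2l, known as a supercomplex factor, had no value under its symbol. Tested sums also missed the coding transcript for Ndufs1, the largest core subunit, which was listed as coding in 2 libraries and had a summed mean of 2.60 FPKM, and in all libraries for Atp5f1, Cox5b and Ndufa7. Their differences are therefore those of transcripts not annotated as protein-coding, such as retained introns. The low values of Ndufa5, Uqcr10 and Atp5j (Chow replicate 2) given above also lacked a coding transcript.

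Signal also stood in rows that carry a location in place of a symbol and overlap a member gene. They were matched by coordinates alone, without strand, so whether their signal comes from the member was not tested. For Ndufs8, 2 such rows on chromosome 19 (3908868 to 3912748 and 3908868 to 3912753), spanning over 99% of the gene, were listed in 9 libraries at 10.4 to 51.3 FPKM. In ChowCR replicate 2 the symbol gave 1.22 FPKM and the location 50.1. The symbol's own rows ran from 0.850 to 20.6 FPKM (median 10.4) in 8 of those 9 libraries and from 2.56 to 27.8 (median 13.1) in the 20 others with a value. For Uqcrc1 a row covering 17.4% of the gene was listed in 7 libraries at 38.4 to 46.4 FPKM, far above the symbol's highest value of 2.82. For Atp5f1, a peripheral-stalk subunit, such a row was listed in 6 libraries at 43.2 to 90.3 FPKM, and for Cox7a2l in 4 libraries at 12.3 to 19.3 FPKM. The Atp5f1 row covers 46.2% of the gene, which is overlapped on the opposite strand by Wdr77. Each had libraries with no location row at all, so no comparison between diets was made on these sums.

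**Figure D5:**
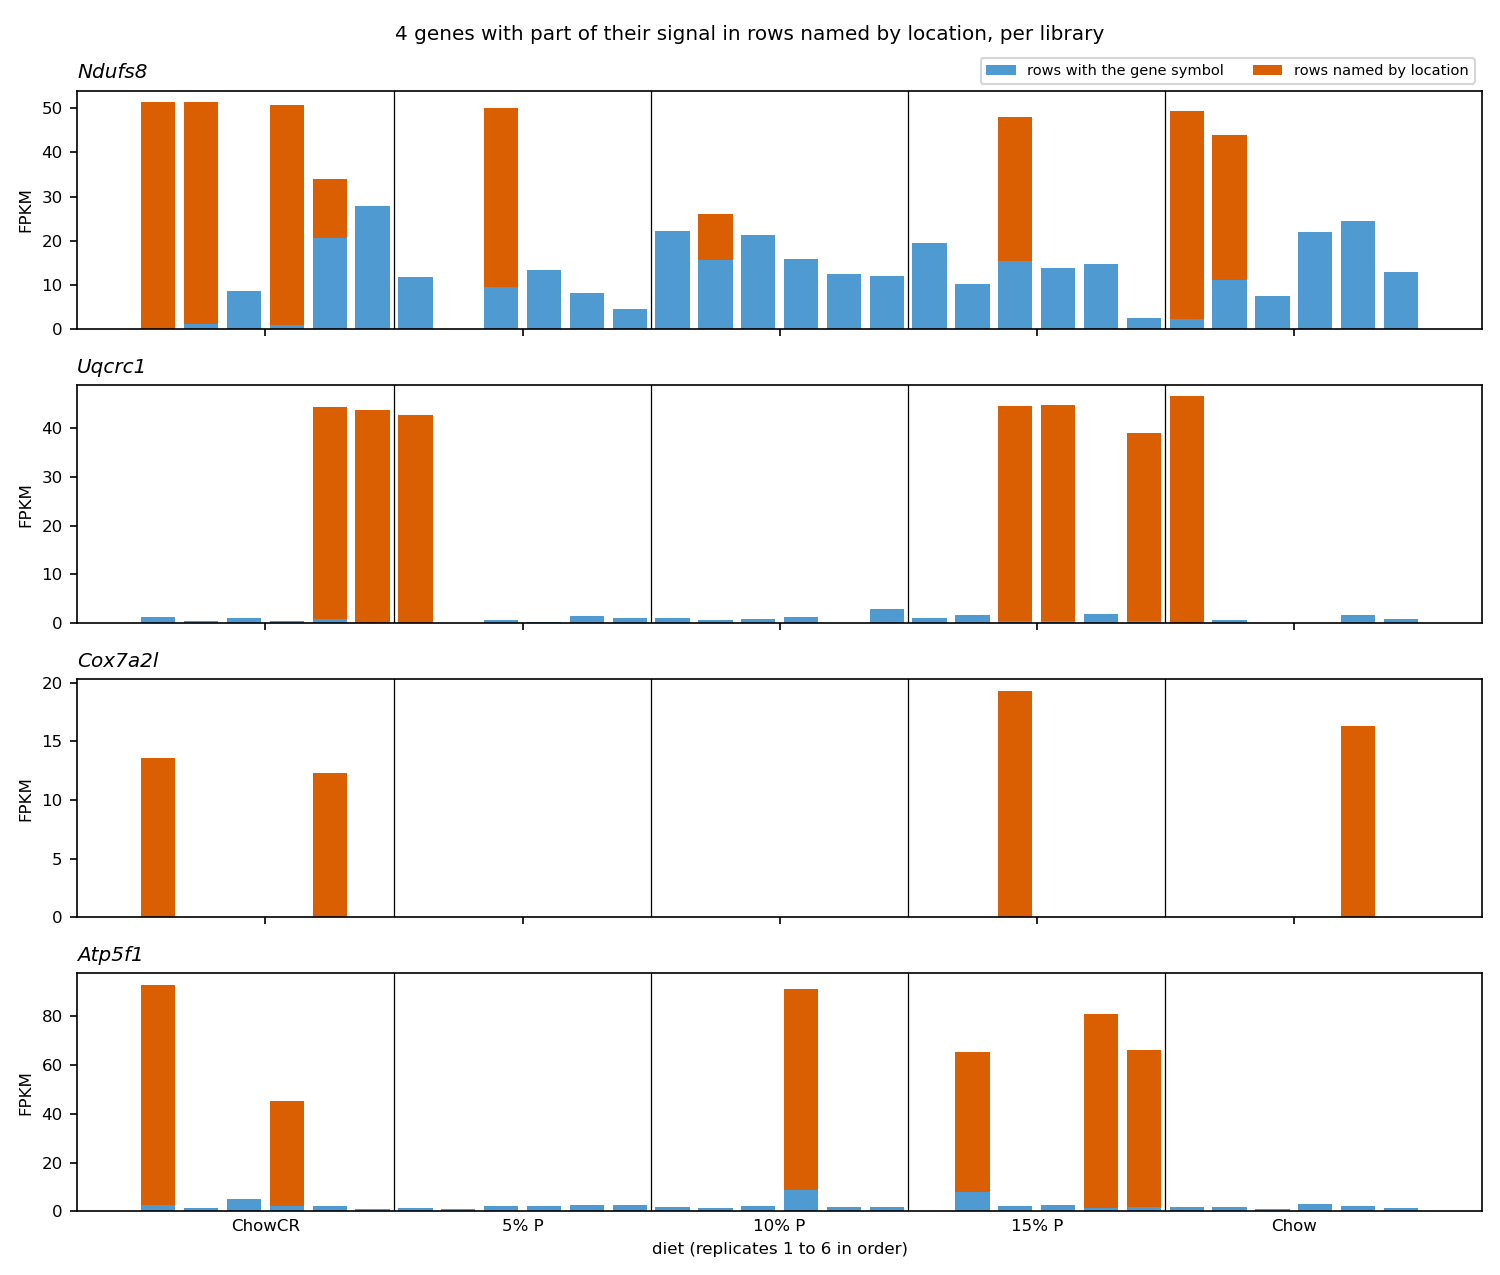
FPKM per library for Ndufs8, Uqcrc1, Cox7a2l and Atp5f1, stacked as rows with the gene symbol (blue) and rows named by location (orange), libraries in order of diet and replicate. Location rows reach 51.3 FPKM for Ndufs8, 46.4 for Uqcrc1, 19.3 for Cox7a2l and 90.3 for Atp5f1, and occur in 9, 7, 4 and 6 libraries.

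Other genes of the pathway were read from 6 lists, and none of their tested members passed the threshold in any comparison of diets. Of the assembly factors of the complexes, 24 of 44 were tested; 13 were higher and 11 lower in ChowCR than in Chow, and 9 were higher and 15 lower in the mean of the P diets. Ndufaf3, a complex I assembly factor, differed from Chow by 0.28 ± 0.084 in ChowCR (SE; adjusted p = 0.29 in limma). Coa3, which acts in complex IV assembly, differed by -1.54 ± 0.49 in ChowCR (adjusted p = 0.41 in limma), -1.58 in 5% P, -1.13 in 10% P and -1.29 in 15% P. Coa6, a copper-related factor of complex IV, differed from Chow by 1.12 ± 0.32 in 15% P (adjusted p = 0.47 in limma). Of 17 genes of the tricarboxylic acid cycle 14 were tested, with 6 higher and 8 lower in ChowCR and 5 higher and 9 lower in the mean of the P diets. Cs, citrate synthase, differed from Chow by 0.50 ± 0.23 in ChowCR, and Idh2 by 0.82 ± 0.36, with adjusted p-values of 0.69 and 0.67 in limma. In the mean of the P diets Cs differed from Chow by 0.36 ± 0.19 and Idh2 by 0.57 ± 0.30.

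Of 14 regulators of mitochondrial biogenesis 4 were tested; 2 were higher and 2 lower in ChowCR, and 3 higher and 1 lower in the mean of the P diets. Polrmt, the mitochondrial RNA polymerase, differed from Chow by 1.66 ± 0.59 in ChowCR (SE; adjusted p = 0.52 in limma), 1.32 in 5% P, 1.39 in 10% P and 0.72 in 15% P. Of 10 carriers of adenine nucleotides and phosphate and outer membrane channels 7 were tested, with 4 higher and 3 lower in ChowCR and 3 higher and 4 lower in the mean of the P diets. Slc25a3, the phosphate carrier, differed from Chow by 0.18 ± 0.098 in ChowCR and 0.17 ± 0.080 in the mean of the P diets (adjusted p = 0.74 and 0.83 in limma). Of 14 subunits and partners outside the symbol rule 2 were tested, Higd2a and Atpif1, the inhibitor of ATP synthase. Atpif1 differed from Chow by -0.37 ± 0.12 in 15% P, with an adjusted p of 0.72 in limma. None of the 13 mitochondrially encoded subunits of the last list was found under the symbol searched.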

How the data were processed

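Hippocampal RNA of 30 mice, 6 a diet, was made into stranded poly(A) libraries and read from one end, per the labels' protocols. The tools named in the submitters' processing notes are StringTie (1.2.4), TopHat2 (2.0.14), DESeq2 (1.16.1), featureCounts (1.4.6) and bcl2fastq (2.18.0), on build mm10, without settings. The authors deposited FPKM per transcript, scaled by transcript length and library size, so depth is unknown. A missing value was taken as not listed, and it added nothing to the marker sums. FPKM was summed per symbol. Symbols listed in all 30 libraries with a mean of at least 1 FPKM were fitted with limma 3.58.1 in R 4.3.3 on log2(FPKM + 0.5), with diet and sex, after tests on simulated data. Transcript types and coordinates came from GENCODE M21, in which all 213 member transcripts were found.

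Members and lists were chosen with earlier results of these data known. Named members were those past the threshold, the 3 of smallest p in a comparison, the highest and lowest of each complex, a set of core or marker subunits, those not tested, the 3 widest and 3 narrowest, and any whose leading transcript differed in sign from the sum. The lists were assembly factors, mitochondrially encoded subunits, subunits outside the rule, the tricarboxylic acid cycle, biogenesis regulators and carriers, with cell type markers. The 6 libraries of a diet are biological replicates, per the series' design text. The alternatives changed the pseudocount, filter, features, scaling, covariates, weights, sex or 1 library at a time. Adding a term for Ttr, coding transcripts alone and symbols without low libraries were chosen after seeing the data. The values of 1 member are not reported here or drawn in the figures, and counts and medians over members include it.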

Additional observations from a re-analysis of the deposited data

Results flagged for a closer look

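Each of the 52 tested members was examined in each diet for 1 library far from the other 5, and 33 of 260 groups (12.7%) had one, in 21 members; chance flags about 5 percent of groups. The library lay above the others in 18 and below them in 15.

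Cox4i1 had 1 high library in 4 diets: 343 FPKM in ChowCR replicate 2 (others 251 to 267), 372 in 5% P replicate 3 (others 242 to 253), 329 in 10% P replicate 6 (others 244 to 269) and 342 in Chow replicate 5 (others 242 to 270). Ndufa4 had 1 low library in 4 diets: 1.159 FPKM in ChowCR replicate 4, 1.31 in 5% P replicate 3, 1.201 in 15% P replicate 6 and 1.07 in Chow replicate 2, with the others at 207 or above. Ndufb9 was high at 134 FPKM in ChowCR replicate 4, 158 in 15% P replicate 3 and 136 in Chow replicate 1, with the others of these diets at 80.0 to 103.

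Other high libraries in complex I were those of Ndufv3 (66.1 FPKM in ChowCR replicate 3 and 65.8 in 10% P replicate 1, others 27.3 to 39.6), Ndufb5 (58.3 in ChowCR replicate 2, others 55.1 to 55.7) and Ndufs4 (36.9 in 5% P replicate 5, others 14.9 to 20.7). Low ones were those of Ndufa6 (40.2 in 15% P replicate 6, others 66.4 to 81.6), Ndufa7 (24.98 in 5% P replicate 4 and 27.3 in Chow replicate 4, others 51.6 to 65.7), Ndufa8 (29.3 in 15% P replicate 4, others 45.6 to 55.1), Ndufb10 (82.2 in 5% P replicate 2, others 92.2 to 97.8) and Ndufb2 (20.7 in Chow replicate 6, others 43.9 to 52.2).

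In complex III, Uqcr10 stood at 113 FPKM in ChowCR replicate 2 (others 45.3 to 52.8) and 127 in 15% P replicate 4 (others 40.1 to 68.7), and Uqcrfs1 at 65.3 in 10% P replicate 5 (others 45.5 to 52.2). In complex IV, within 15% P, Cox6a1 stood at 64.8 FPKM in replicate 6 (others 229 to 283), Cox7a2 at 46.5 in replicate 2 (others 129 to 163) and Cox6b1 at 219 in replicate 3 (others 134 to 151). In complex V, Atp5b stood at 373 FPKM in Chow replicate 6 (others 432 to 459), Atp5o at 69.8 in Chow replicate 3 (others 77.8 to 82.3), Atp5g3 at 158 in Chow replicate 3 (others 102 to 114) and Atp5j at 26.7 in 5% P replicate 4 (others 94.5 to 105). Atp5f1, listed through transcripts that are not protein-coding, stood at 8.73 FPKM in 10% P replicate 4 (others 1.501 to 2.31) and 7.84 in 15% P replicate 2 (others 0.215 to 2.44).

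Signal outside the measured symbols was found in rows named by location that lie within member genes. It reached 90.3 FPKM for Atp5f1, 19.3 for Cox7a2l, 51.3 for Ndufs8 and 46.4 for Uqcrc1, each in some libraries of several diets.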

How the results depend on the processing

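In each of the 18 alternatives run beside leaving out 1 library at a time, and in every such omission, 0 members passed the threshold in the comparisons that could be fitted. The members' median differences moved by less than 0.072, the SD of a library's member median within diets. That SD is for 1 library, not for a difference between diet means, and it exceeds each of these medians over all members. Over the alternatives the medians ran from 0.0054 to 0.058 for ChowCR and -0.034 to 0.011 for 5% P. They ran from -0.038 to 0.0097 for 10% P and -0.077 to 0.0023 for 15% P. The averaged P diets gave -0.045 to -0.014 against Chow and -0.12 to -0.011 against ChowCR. The trend gave -0.026 to 0.010 and sex -0.014 to 0.010. All but those of ChowCR and of the averaged P diets changed sign. Median-ratio rescaling moved a library's median by at most 0.080. Of the refits of a named member's difference 813 kept its sign; 1 did not, Ndufs6 in 5% P against Chow, 0.0097 in males alone. Counts over all symbols moved more. ChowCR against Chow (3) gave 6 with no filter on the mean, 0 with only the groups compared, 1 in females alone, 1 with coding transcripts alone and 1 among symbols without low libraries. In males alone 5% P, 10% P, 15% P and the averaged P diets, each against Chow, gave 3, 3, 1 and 3, the averaged P diets against ChowCR 3 and any diet difference 6; in females alone the first 4 gave 2, 1, 2 and 2, and any diet difference 2 (each 0 in the full fit). With only the groups compared, 10% P, 15% P and the averaged P diets (against ChowCR) gave 1 each. At a mean of 5 FPKM or more, and without low libraries, 10% P gave 1. Both rescalings gave 1 for the averaged P diets against ChowCR. Males against females (1) gave 0 with the most abundant transcript, with transcripts as features and with coding transcripts alone. Sex effects differing between diets (4) gave 2 with a mean of 5 FPKM or more, 2 with coding transcripts alone and 2 without low libraries. Leaving out 1 library gave 2 to 4 for ChowCR, 0 to 1 for 10% P, 0 to 1 for 15% P, 0 to 6 for the averaged P diets against Chow (1 to 6 without any 1 of the Chow libraries, and 6 without Chow replicate 3), 0 to 2 against ChowCR, 0 to 1 for the trend, 0 to 2 for any diet difference and 4 to 6 for sex effects. The cause was not tested. No paired analysis was possible because replicate numbers follow accession order. The intervals, up to 3.04 on the log2 scale either side, limit what the noisiest members can show.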
